A study of Caenorhabditis elegans with 2 samples.

Results

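The nhr family comprises the nuclear hormone receptor genes of *Caenorhabditis elegans* that carry the symbol nhr and a number. All 269 protein-coding genes of that name in the WBcel235 annotation were taken, of 19973 nuclear protein-coding genes in all, and the other 19704 served for comparison. The 12 mitochondrial protein-coding genes were left out. A gene was given every region whose summit lay from 1000 bp upstream to 500 bp downstream of any of its transcript starts, or anywhere in its body. The members were proposed from this placement and from the ranks of the regions, so the counts and ranks given here are descriptions, carry no test and support no statement that the family stands apart.

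The regions came from chromatin immunoprecipitation and sequencing of UNC-62, with 2 biological replicates of a single group and no other genotype, stage or treatment. The worms were whole L4 larvae of mixed sex, of strain OP600, in which unc-119(ed3) is combined with the integrated transgene wgIs600. That transgene encodes UNC-62 with TY1, EGFP and FLAG sequences at its C terminus and a copy of unc-119. The antibody's target is labelled unc-62, without word of whether the protein or the tag was recognised, and chromatin was fragmented by sonication. Whole animals hold every tissue, so occupancy in few cells and weak occupancy in many cells cannot be told apart, and both samples come from 1 transgenic line. The labels call the samples biological replicates and say no more about how they were grown. The lists rest on a comparison with a control, whose own library was not examined here.

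The authors deposited 4 lists on build ce11. Regions numbered 4849 in the pooled list, 18114 in replicate 1 and 20477 in replicate 2, besides the short thresholded list that the authors derived from them. The q-value was at most 0.05 for 352 pooled, 1521 replicate 1 and 604 replicate 2 regions. All lists but the thresholded one include background regions, and the scale of the deposited signal differs between lists, so regions were ranked by signal within a list, with rank 1 the highest. Sequencing depth is unknown, and the 95% Wilson intervals given with shares cover the counting of genes or regions only.

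Nuclear hormone receptors are transcription factors with a zinc-finger DNA-binding domain and a ligand-binding domain, and many bind small lipophilic molecules. The nematode family is far larger than that of insects or mammals and includes a large group of relatives of the vertebrate receptor HNF4. Members act in molting, cell fate, fat and amino acid metabolism, and responses to diet and pathogens. UNC-62 is a homeodomain protein of the Meis and Homothorax class, whose preferred core word in DNA is TGACAG.

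The sequences below are those around the summits of the regions on which the description of single genes rests. Each covers 100 bp on either side of a pooled summit, read on the plus strand of WBcel235 (the ce11 assembly), and capitals mark TGACAG read on the opposite strand (CTGTCA). The first is a thresholded region, at chrIV:5756080-5756280 in an intron of nhr-46. The next is the thresholded region at chrX:14560371-14560571 in an intron of nhr-3. It is followed by the second-ranked region of nhr-3, at chrX:14558062-14558262, upstream of the gene. The last is at chrII:6448727-6448927 in an intron of nhr-22, the remaining gene with a q-value of 0.05 or less in both replicates.
nhr-46 intron: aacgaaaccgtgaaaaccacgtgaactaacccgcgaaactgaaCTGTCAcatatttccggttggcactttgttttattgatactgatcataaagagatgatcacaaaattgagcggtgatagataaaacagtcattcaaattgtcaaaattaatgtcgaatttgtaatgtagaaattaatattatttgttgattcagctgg
nhr-3 intron: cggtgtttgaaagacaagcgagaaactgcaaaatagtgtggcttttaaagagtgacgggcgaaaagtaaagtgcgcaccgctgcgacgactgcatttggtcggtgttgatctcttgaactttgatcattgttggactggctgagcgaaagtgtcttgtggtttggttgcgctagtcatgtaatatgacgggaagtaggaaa
nhr-3 upstream: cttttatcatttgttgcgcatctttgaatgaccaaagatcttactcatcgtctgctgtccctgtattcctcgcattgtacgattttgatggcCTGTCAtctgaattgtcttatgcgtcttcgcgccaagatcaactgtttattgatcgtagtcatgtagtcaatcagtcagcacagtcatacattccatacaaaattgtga
nhr-22 intron: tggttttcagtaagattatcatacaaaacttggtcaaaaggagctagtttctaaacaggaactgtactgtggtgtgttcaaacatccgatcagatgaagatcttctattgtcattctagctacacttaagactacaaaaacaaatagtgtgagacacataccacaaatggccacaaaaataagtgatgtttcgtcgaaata

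The word was present once each in the nhr-46 and upstream nhr-3 windows and was not found in the nhr-3 and nhr-22 intron windows. Its centre lay 55 bp from the nhr-46 summit and 6 bp from the upstream nhr-3 summit. Both strands were searched, and the absence of these letters from a window says nothing more about the factor.

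Of the 269 nhr genes, 3 (1.12%, 95% interval 0.38 to 3.23) had a thresholded region, against 123 of the 19704 other genes (0.624%). Over all genes the share was 0.631%. The 3 genes are nhr-46, nhr-35 and nhr-3, on chromosomes IV, X and X.

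The nhr-46 gene lies on the minus strand at chrIV:5747363-5757862. Its region (chrIV:5755972-5756387) had its summit in an intron, 1682 bp downstream of the nearest transcript start. It ranked 85 in the pooled list with a signal of 27.3 and a q-value of 0.0381, which is the value shared by all thresholded regions. The overlapping regions ranked 50 in replicate 1 (q = 0.00220) and 253 in replicate 2 (q = 0.0178). Replicate 1 also held regions of ranks 264 and 396 in the gene, 1500 and 3505 bp downstream of the same start. The rank 396 region of replicate 1 overlapped a pooled region of rank 1149, whose match in replicate 2 ranked 6106 (q = 0.593). The neighbouring pooled region of rank 1941 overlaps the thresholded one and shares its best-ranked matches in both replicates. It also overlaps the replicate 1 region of rank 264 (q = 0.00569), whose summit lies closer to its own. The strongest nhr-46 region was therefore found by both libraries, while the next site downstream was high in replicate 1 only.

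The nhr-35 gene lies on the plus strand at chrX:4532691-4537546. Its region had its summit 384 bp upstream of the start. It ranked 89 in the pooled list with a signal of 26.9. The overlapping regions ranked 81 in replicate 1 (q = 0.00220) and 216 in replicate 2 (q = 0.0162). The replicate 1 summit fell on the pooled one and the replicate 2 summit lay 402 bp upstream of the start. All other replicate regions at nhr-35 had q-values from 0.225 to 0.860. It is the family's only thresholded region outside a gene body.

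The nhr-3 gene lies on the plus strand at chrX:14558504-14561432. Its region (chrX:14560263-14560678) had its summit in an intron, 1967 bp downstream of the start. It ranked 154 in the pooled list with a signal of 22.4. The overlapping regions ranked 291 in replicate 1 (q = 0.00861) and 572 in replicate 2 (q = 0.0464). The upstream region, with its summit 342 bp before the start, ranked 646 in the pooled list, 4813 in replicate 1 (q = 0.220) and 472 in replicate 2 (q = 0.0308). Another pooled region, in a coding exon, 1178 bp downstream, ranked 1494 in the pooled list, 792 in replicate 1 (q = 0.0221) and 16649 in replicate 2 (q = 0.926). Of the sites at nhr-3, the intron was thus the one with a q-value of 0.05 or less in both libraries, the upstream site passed in replicate 2 and the exon site in replicate 1. With 4 pooled regions, nhr-3 had as many as any member.

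**Figure D1:**
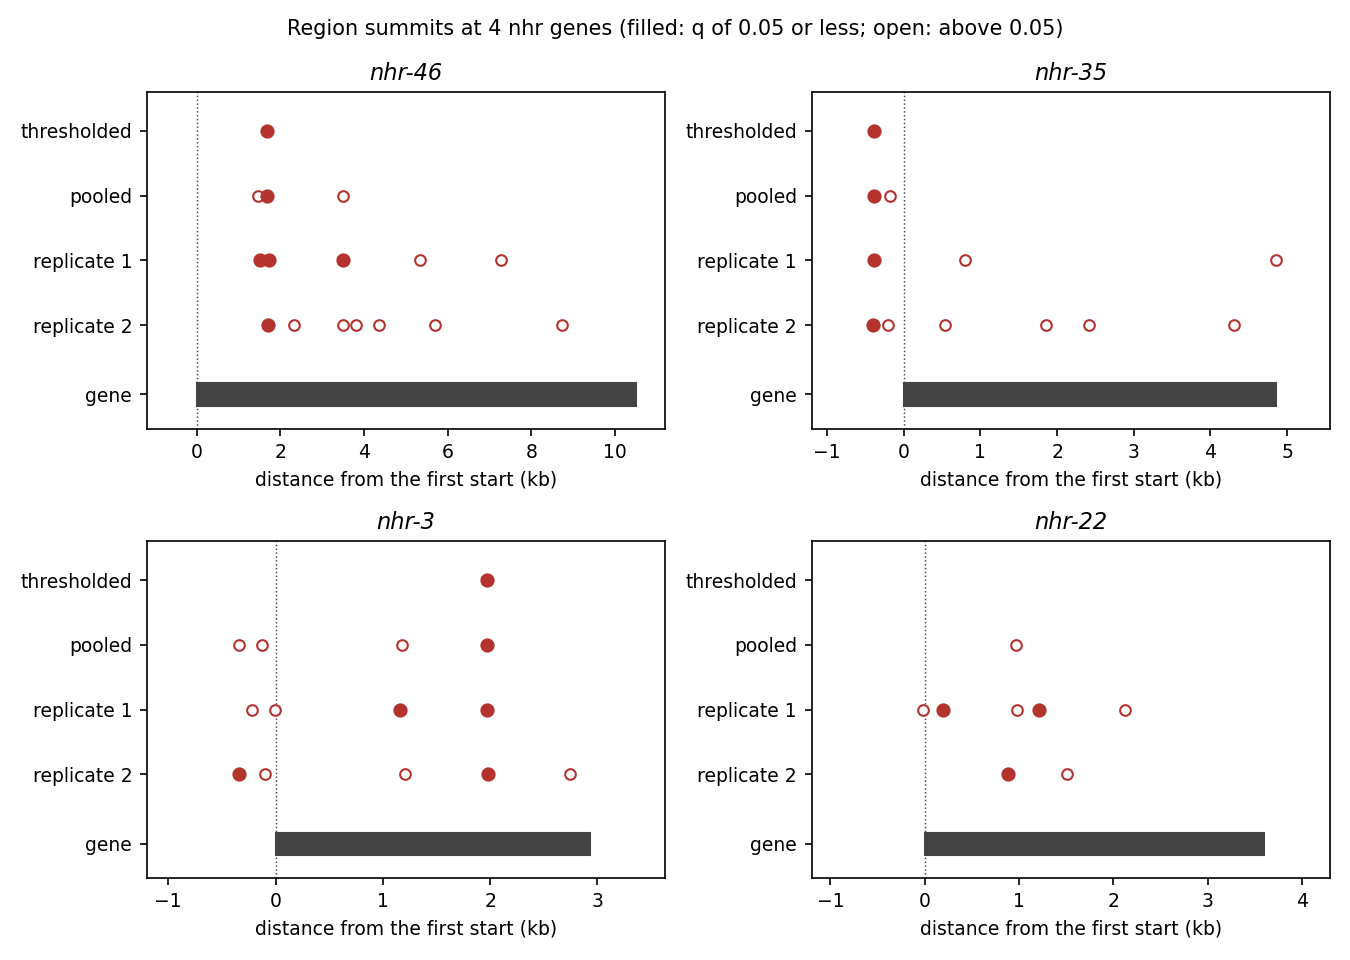
Summits at nhr-46, nhr-35, nhr-3 and nhr-22 in each of the 4 lists. The horizontal axis is the distance in kb from the gene's first annotated start in the direction of transcription, the bar is the gene body, filled marks have a q-value of 0.05 or less and open marks a higher one. At nhr-46, nhr-35 and nhr-3 a filled mark stands at the same place in all 4 lists, while at nhr-22 the pooled mark is open.

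A region of the pooled list with a q-value of 0.05 or less was present at 4 nhr genes (1.49%, 0.580 to 3.76), against 254 other genes (1.29%), with 1.29% over all genes. The fourth gene, after nhr-46, nhr-35 and nhr-3, was nhr-178. A q-value of 0.05 or less in both replicates was present at 4 nhr genes (1.49%) and 211 other genes (1.07%), with 1.08% over all genes. Here the fourth was nhr-22, and nhr-178 was not among them. The nhr-178 region had its summit 5 bp downstream of the start, in the 5′ UTR. It ranked 316 in the pooled list (signal 17.4, q = 0.0428), 3504 in replicate 1 (q = 0.168) and 214 in replicate 2 (q = 0.0164). The nhr-22 region ranked 912 in the pooled list (signal 12.1, q = 0.274), with its summit 965 bp downstream of the start. The best overlapping regions ranked 922 in replicate 1 (q = 0.0233) and 543 in replicate 2 (q = 0.0415), with summits 1208 bp and 880 bp downstream of the start. A replicate 1 region closer to the pooled summit, 980 bp downstream, ranked 3048 (q = 0.135), so the libraries placed the nhr-22 signal differently. The pooled list thus placed nhr-178 above nhr-22, although nhr-22 had the lower q-value in replicate 1.

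In replicate 1 a region with a q-value of 0.05 or less was present at 24 nhr genes (8.92%, 6.07 to 12.9) and 1171 other genes (5.94%), with 5.98% over all genes. In replicate 2 it was present at 10 nhr genes (3.72%, 2.03 to 6.71) and 438 other genes (2.22%), with 2.24% over all genes. The higher count in replicate 1 goes with that list's larger number of such regions. Of the 24 genes in replicate 1, 5 had no pooled region at all, and each of the 10 in replicate 2 had one. These counts were not taken over the other genes, so nothing is read from them about the family or the replicates.

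The members that follow in the pooled list were mostly strong in a single library. An intronic region of nhr-34 ranked 536 in the pooled list, with ranks of 11138 in replicate 1 (q = 0.533) and 368 in replicate 2 (q = 0.0177). An intronic region of nhr-19 ranked 584, with ranks of 11088 in replicate 1 (q = 0.530) and 474 in replicate 2 (q = 0.0306). A region at a start of nhr-232, with its summit in the 5′ UTR and TGACAG in its window, ranked 735, with ranks of 640 in replicate 1 (q = 0.0196) and 5404 in replicate 2 (q = 0.565). A region in the 3′ UTR of nhr-88 ranked 982, with ranks of 1303 in replicate 1 (q = 0.0380) and 3601 in replicate 2 (q = 0.408). The region 85 bp upstream of nhr-256 ranked 565 in the pooled list without a q-value of 0.05 or less in replicate 1 (0.150) or replicate 2 (0.113). So nhr-34 and nhr-19 were high in replicate 2, and nhr-232 and nhr-88 in replicate 1.

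Values next to the limits of the description were as follows. At the rank equal to the length of the thresholded list, nhr-35 (89) and nhr-3 (154) were the last members inside and nhr-178 (316) and nhr-34 (536) the first outside. Around rank 1000, nhr-22 (912) and nhr-88 (982) were inside, and nhr-119 (1032) and nhr-8 (1035) outside. The 15 best-placed genes ended with nhr-61 (1157), nhr-135 (1258) and nhr-148 (1286). The nhr-148 region lies 488 bp upstream of that gene and also in the window of its neighbour nhr-263, so the 2 genes have 1 signal between them. Below the top, signal thinned quickly: rank 1286 corresponds to a signal of 11.0, against 27.3 at nhr-46.

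A pooled region of any rank was present at 62 nhr genes (23.05%, 18.4 to 28.4) and 3304 other genes (16.8%), with 16.9% over all genes. Of these, 10 nhr genes (3.72%) had a region ranked among the 1000 highest, against 727 other genes (3.69%), with 3.69% over all genes. The gap between the pooled shares was thus not seen among the 1000 highest regions. A replicate 1 region was present at 135 nhr genes (50.2%) and 9495 other genes (48.2%), with 48.2% over all genes. A replicate 2 region was present at 148 nhr genes (55.02%) and 10003 other genes (50.8%), with 50.8% over all genes. Regions of both replicates were present at 90 nhr genes (33.5%, 28.1 to 39.3) and 6033 other genes (30.6%), with 30.7% over all genes. No region of any list was present at 76 nhr genes, and 131 had a replicate region but no pooled one. Neither count was taken over the other genes, so nothing is read from them about the family.

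Among the 62 genes, 39 had 1 pooled region, 12 had 2, 9 had 3 and 2 had 4. These are 95 distinct regions, or 85 after joining those that overlap, so part of the counts per gene are single signals listed as neighbours. A pair of nhr genes shared 1 region in 3 cases, 12 regions also lay in the window of a gene outside the family, and for 77 of the 95 the nearest transcript start was that of an nhr gene. The best pooled region of a gene had a median rank of 2232 at nhr genes and 2310 at other genes.

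Of the 95 regions at nhr genes, 67 (70.5%) overlapped a replicate 1 region and 84 (88.4%) a replicate 2 region, and 57 (60.0%, 49.95 to 69.3) overlapped both. For the 3598 pooled regions at other genes these shares were 70.8%, 85.05% and 57.3%. Among the 57, the Spearman correlation between the replicate 1 rank and the replicate 2 rank was 0.12, and among the 2062 such regions at other genes it was 0.15. Both are descriptions over regions that share their libraries. The median rank of the matches in replicate 1 was 6323 at nhr genes and 3815 at other genes, and in replicate 2 it was 4048 at nhr genes and 3451 at other genes.

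**Figure D2:**
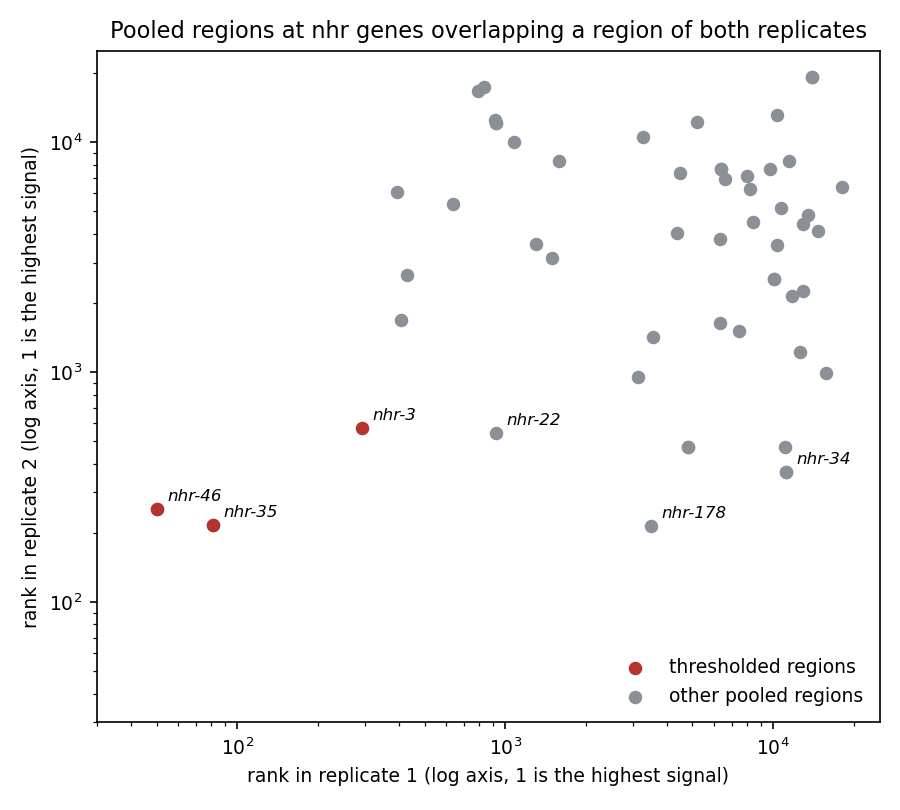
Ranks of the 57 pooled regions at nhr genes that overlapped a region of both replicates, with the rank in replicate 1 on the horizontal and in replicate 2 on the vertical log axis. The 3 thresholded regions lie at the lower left, with nhr-46 at 50 and 253, while nhr-178 and nhr-34 are high in replicate 2 and far down in replicate 1.

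The length of a gene sets how many summits can fall in it. The window of an nhr gene had a median length of 3309 bp, against 3022 bp for other genes. Among genes with windows under 3 kb, 5 of 93 nhr genes (5.38%, 2.32 to 11.97) had a pooled region, against 10.1% of 9752 other genes. From 3 to 5 kb it was 32 of 119 nhr genes (26.9%, 19.7 to 35.5) against 17.5% of other genes, and from 5 to 10 kb 18 of 47 (38.3%, 25.8 to 52.6) against 26.6%. From 10 kb it was 7 of 10 nhr genes (70%, 39.7 to 89.2) against 41.5% of other genes. In the replicate lists the shares of nhr and other genes lay closer in each class, for example 52.9% and 51.8% in replicate 1 and 56.3% and 54.0% in replicate 2 from 3 to 5 kb. The higher pooled share was thus found in nhr genes of 3 kb or more, and the shortest members had the lower share.

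**Figure D3:**
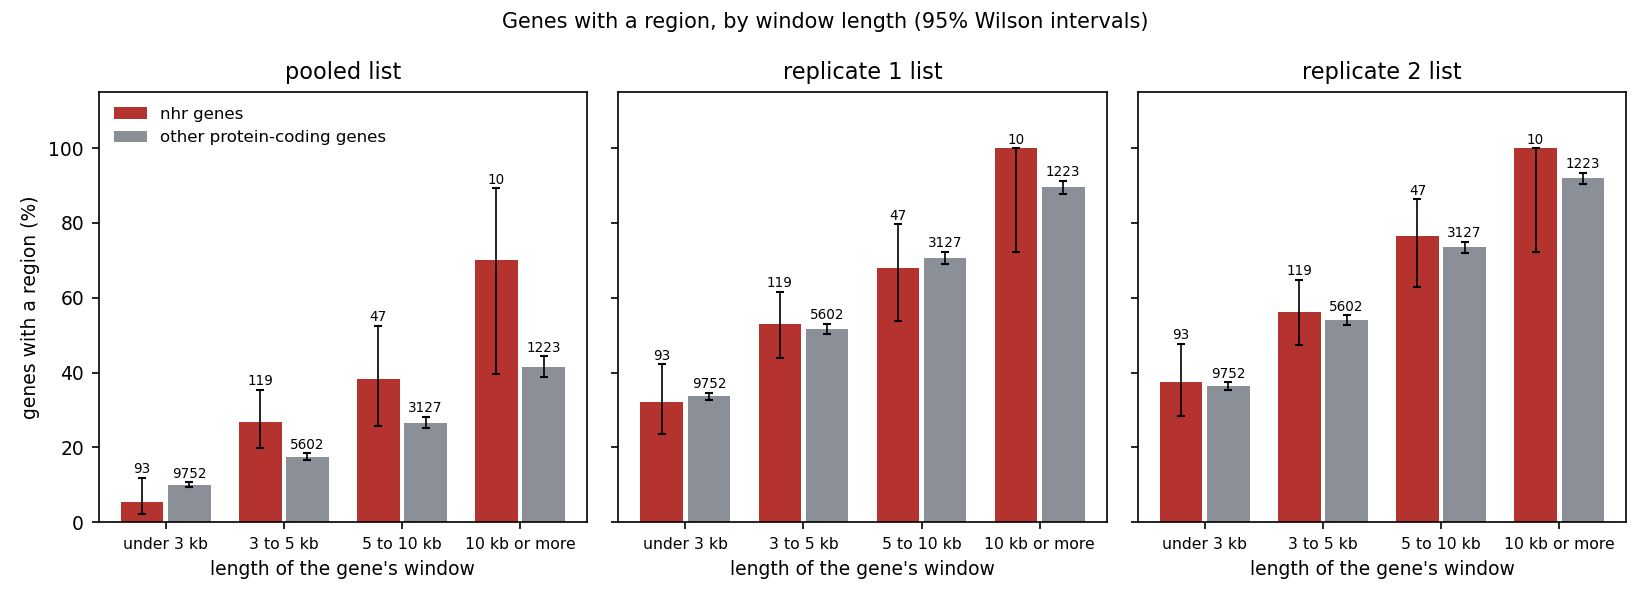
Share of genes with at least 1 region in the pooled, replicate 1 and replicate 2 lists, by the length of the gene's window, for nhr genes (left bar) and other protein-coding genes (right bar). Error bars are 95% Wilson intervals and the number over each bar is the number of genes; in the pooled panel 26.9% of nhr genes stand beside 17.5% of other genes from 3 to 5 kb.

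The longest member is nhr-27, with a window of 103756 bp. It held 22 replicate 1 regions and 24 replicate 2 regions but 3 pooled ones, the best at rank 2190. Its best ranks were 379 in replicate 1 (q = 0.0119) and 1374 in replicate 2 (q = 0.172), at other places than that pooled region. The pooled region of rank 2190 matched a replicate 1 region of rank 8432 (q = 0.410). All 3 pooled summits were nearest to the start of a gene other than nhr-27 and also lay in the window of another gene. Per kb of window there were 0.0820 pooled summits at nhr genes and 0.0501 at other genes. Without nhr-27, an alternative chosen after seeing the data, the value at nhr genes was 0.0871.

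Summits at nhr genes lay in gene bodies more often than upstream. A summit more than 500 bp from any start but within the body accounted for 51 of the 98 pairs of nhr gene and pooled region (52.0%), against 43.0% of 4183 pairs at other genes. A summit within 500 bp of a start and not upstream of the gene accounted for 21 (21.4%) against 19.6%, and one upstream of the gene for 26 (26.5%) against 37.4%. Introns held 31 nhr summits (31.6%), coding exons 24 (24.5%) and 5′ UTRs 10 (10.2%). At other genes 32.1% were in introns, 20.5% in coding exons and 3.54% in 5′ UTRs. Pairs share genes and regions, and these differences were not tested.

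The family is concentrated on chromosome V, which holds 167 of its genes (62.1%) and 24.5% of the other genes. Of the 167, 31 had a pooled region (18.6%), against 13.3% of other genes on V. The shares were higher on IV, with 13 of 33 nhr genes (39.4%) against 16.9% of other genes, on X, with 9 of 23 (39.1%) against 21.7%, and on II, with 5 of 15 (33.3%) against 15.96%. The median window of nhr genes was 4535 bp on IV, 5483 bp on X and 3070 bp on II, against 3146 bp on V, and that of other genes was 3019 bp on IV, 3531.5 bp on X and 2830 bp on II. The part of window length in the shares by chromosome was not tested. On I it was 3 of 23 (13.04%) against 15.9%, and on III 1 of 8 (12.5%) against 19.8%. The 3 genes with a thresholded region were on IV and X, and none was on V. The thresholded share over all genes was 0.631%, so none among 167 genes is near that share. The intervals of the nhr shares on IV (24.7 to 56.3) and V (13.4 to 25.1) overlap slightly.

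**Figure D4:**
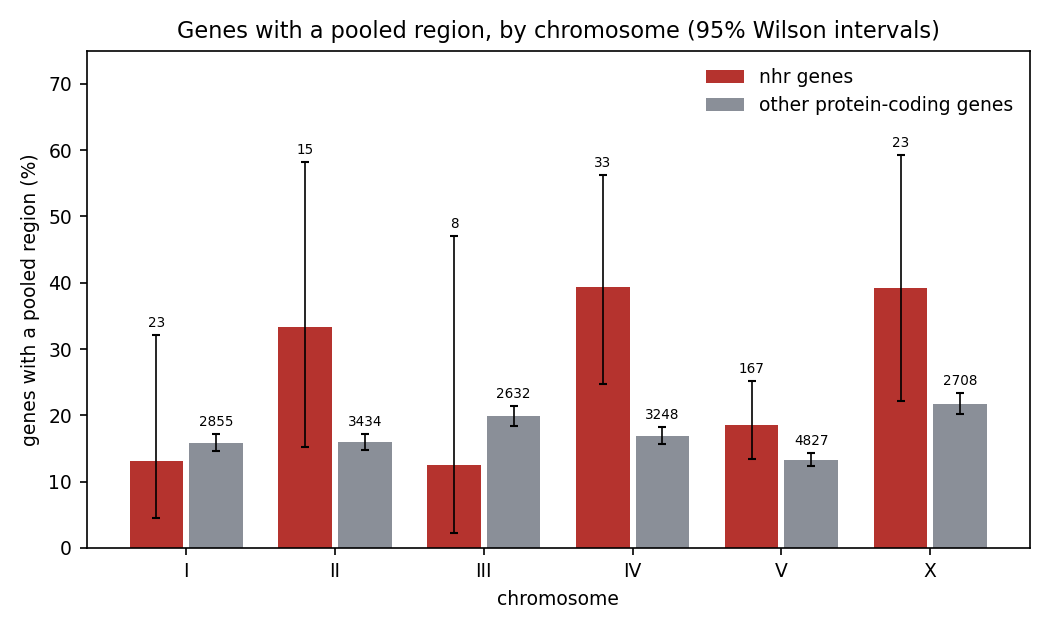
Share of nhr genes (left bar) and other protein-coding genes (right bar) with a pooled region, by chromosome. Error bars are 95% Wilson intervals and the number over each bar is the number of genes; the nhr bars reach 39.4% on IV and 39.1% on X and 18.6% on V.

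Many members stand in tandem arrays. Of the 142 nhr genes with another member within 5 kb, 27 had a pooled region (19.0%) and none a thresholded one. Of the 127 with no such neighbour, 35 had a pooled region (27.6%) and 3 a thresholded one. The thresholded share over all genes was 0.631%, so none among 142 genes is near that share. Genes with a neighbour had a median window of 3159 bp, against 3824 bp without. Counts differed between arrays, which hold few genes each, and these differences were not tested. On chromosome V, 5 of the 7 genes from nhr-99 to nhr-131 and 3 of the 5 from nhr-123 to nhr-201 had a pooled region, with best ranks of 1436 and 1465. In the first of these arrays nhr-211 and nhr-212 have a single region in common, and in the second nhr-201 and nhr-202 have the region of rank 1465 in common, so the counts of genes rest partly on shared signals. None of the 9 genes from nhr-133 to nhr-96, of the 7 from nhr-161 to nhr-42 or of the 4 from nhr-44 to nhr-143 had one, although replicate regions were present in each of these arrays. The array from nhr-178 to nhr-238 had 2 of 7, with the best at nhr-178 itself. A pooled region was present at 16.9% of all genes and at 13.3% of other genes on V. The arrays were named after their values were seen and are short, so nothing is read from their counts, including those of none.

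Since arrays hold related copies, the sequence of each region was searched for 32-base words that occur elsewhere in the genome. Such a word was present in 6 of the 95 regions at nhr genes (6.32%) and in 10.3% of the 3598 regions at other genes. Of the words, 10% or more were repeated in 1 region at nhr genes and in 3.47% of those at other genes. The regions of nhr-46, nhr-35, nhr-3, nhr-178 and nhr-22 had no repeated word.

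Receptors with a described function were placed in groups by role, 27 in all, with a median window of 6044 bp against 3022 bp for other genes. Of these, 13 (48.1%) had a pooled region, with 16.9% over all genes, and 6 (22.2%) had a replicate 1 region with a q-value of 0.05 or less, with 5.98% over all genes. Because the receptors were listed with results known and their windows are long, nothing is read from these shares. Best ranks are given for each list over the whole window, and the best regions of different lists need not lie at the same place. None of the 27 had a thresholded region, with 0.631% over all genes, or a replicate 2 region in its window with a q-value of 0.05 or less, with 2.24% over all genes, so that a count of 0 among so few genes is near these shares. The molting group comprises nhr-23 and nhr-25, which drive the molting programme, and nhr-41, nhr-85 and nhr-91. Of these 5, 3 had a pooled region, at ranks 1752 (nhr-41), 2146 (nhr-25) and 4338 (nhr-85). At nhr-23 there was no pooled region, and its best replicate regions ranked 17788 in replicate 1 (q = 0.902) and 2238 in replicate 2 (q = 0.266). No list had a region at nhr-91. In the group of cell fate, gonad and nervous system, 1 of 6 had a pooled region, at rank 3673 in nhr-6, which is needed for the spermatheca. No list had a region at nhr-67, a relative of tailless that acts in the anchor cell, nor at nhr-239.

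In the fat and energy group, with a median window of 6030 bp, 3 of 7 receptors had a pooled region (16.9% over all genes), at ranks 2302 (nhr-66), 3173 (nhr-49) and 4203 (nhr-64). A replicate 1 region with a q-value of 0.05 or less was present at 3 of the 7, nhr-49, nhr-66 and nhr-69 (5.98% over all genes). At nhr-49, which controls fatty acid oxidation and desaturation, the best ranks were 716 in replicate 1 (q = 0.0217) and 3784 in replicate 2 (q = 0.420), with summits 216 and 66 bp upstream of the start. The pooled nhr-49 summit was in the 3′ UTR, nearest to the start of another gene. At nhr-66, which acts with nhr-49, they were 1075 in replicate 1 (q = 0.0321) and 1417 in replicate 2 (q = 0.174). At nhr-69 they were 409 in replicate 1 (q = 0.0110) and 18498 in replicate 2 (q = 0.967). The best ranks of the replicates were thus close in value at nhr-66 and far apart at nhr-49 and nhr-69. At nhr-66 and nhr-69, however, the best regions of the replicates lay at different sites. The nhr-66 pooled region of rank 2302 matched ranks 1075 in replicate 1 and 9993 in replicate 2 (q = 0.766). The nhr-66 pooled region of rank 2432 matched ranks 3571 in replicate 1 (q = 0.173) and 1417 in replicate 2. At nhr-80 and nhr-13, both partners of nhr-49 in fat metabolism, and at nhr-62, which acts in dietary restriction, no pooled region was present.

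In the propionate and vitamin B12 group, nhr-68 had best ranks of 3521 in the pooled list, 472 in replicate 1 (q = 0.0117) and 2555 in replicate 2 (q = 0.328). Its replicate 1 summit lay 251 bp upstream of the start and the other 2 lay 428 bp downstream. In contrast, nhr-10, which acts with nhr-68 in the propionate shunt, and nhr-114 had no pooled region. In the sterol, xenobiotic and pathogen group, nhr-8 and nhr-48, the relatives of daf-12, had pooled ranks of 1035 and 1478. Their best replicate 1 regions ranked 429 (nhr-8, q = 0.0105) and 408 (nhr-48, q = 0.0110), and their best replicate 2 regions 1189 (nhr-8, q = 0.146) and 1685 (nhr-48, q = 0.208). At nhr-86, which acts in pathogen response, the best replicate 1 rank was 8345. So nhr-8 and nhr-48 had the highest pooled ranks of the 27.

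All 3 receptors of the iron, hypoxia and excretory cell group had pooled regions (16.9% over all genes), at ranks 3081 (nhr-57, induced by hypoxia), 3189 (nhr-14, an iron regulator) and 3774 (nhr-31, which acts in the excretory cell). At nhr-14 the best replicate 2 region in the window ranked 614 (q = 0.0562). A further pooled region in its 3′ UTR, of rank 3598, overlapped a replicate 2 region of rank 173 (q = 0.0131) whose own summit lay outside the window. None of the 3 had a q-value of 0.05 or less in replicate 1, with 5.98% over all genes.

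**Figure D5:**
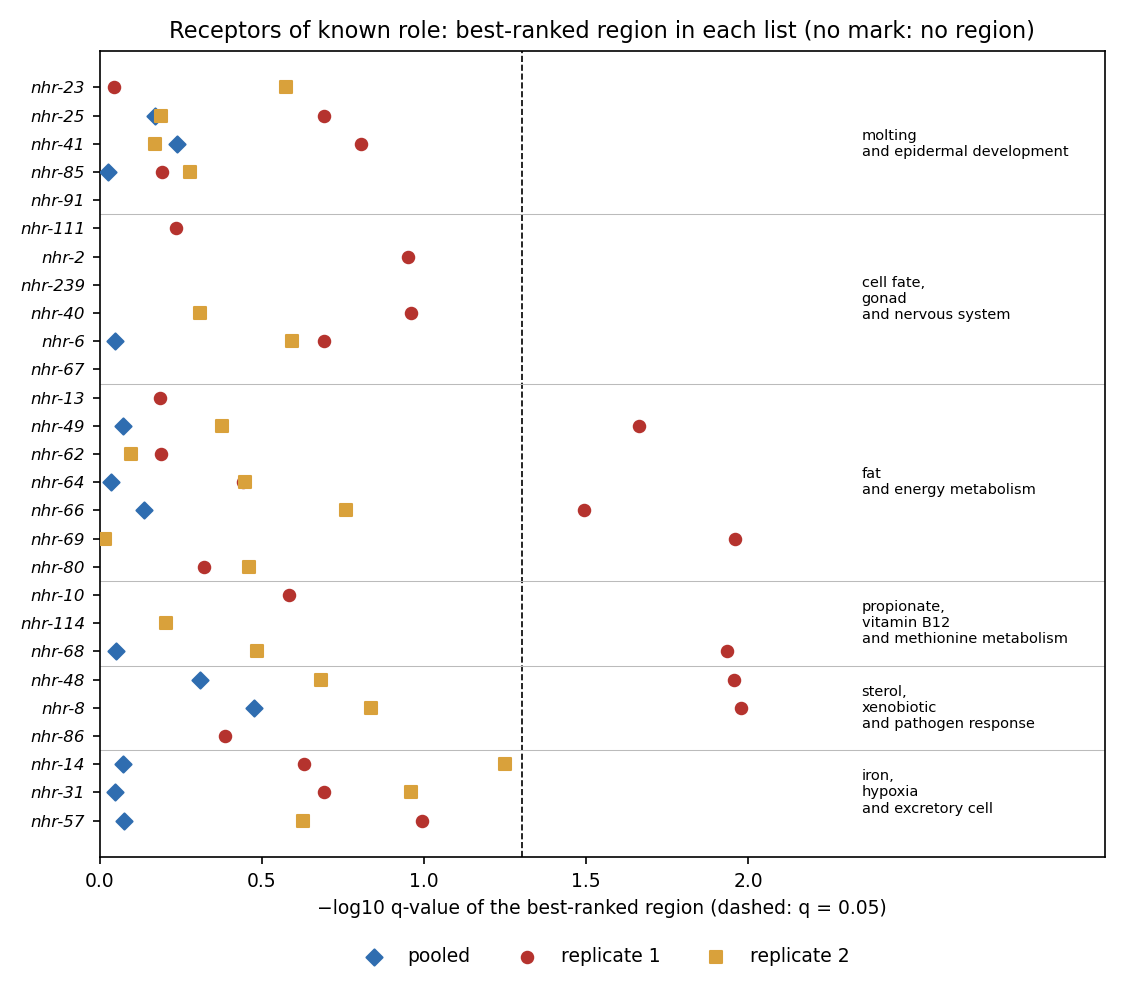
The −log10 q-value of the best-ranked region of each list at the 27 receptors grouped by role, with the dashed line at a q-value of 0.05. Marks to the right of the line are from replicate 1 only, at nhr-49, nhr-66, nhr-69, nhr-68, nhr-48 and nhr-8; a missing mark means that the list had no region there.

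Of 22 genes of the same pathways outside the family, 4 (18.2%) had a pooled region, near the 16.9% over all genes. Among the 5 nuclear receptors with other names it was daf-12, the dafachronic acid receptor, with its best region at rank 696 (q = 0.185). Its best ranks were 1135 in replicate 1 (q = 0.0357) and 821 in replicate 2 (q = 0.0945), in a window of 31968 bp. Of 7 genes for synthesis and transport of the DAF-12 ligand, ncr-1 had a pooled region, at rank 1852. Of 3 cofactors, din-1 had one, at rank 393 (q = 0.0650), and mdt-15 and gei-8 had none. Of 7 downstream genes in fat and propionate metabolism, the desaturase gene fat-6 had one, at rank 270 (q = 0.0381), with ranks of 297 in replicate 1 (q = 0.0118) and 650 in replicate 2 (q = 0.0608). None of these 22 genes had a thresholded region, with 0.631% over all genes.

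TGACAG was present within 100 bp of the summit in 9 of the 95 pooled regions at nhr genes (9.47%, 5.06 to 17.0) and in 9.12% (8.22 to 10.1) of those at other genes. Windows of 201 bp centred 250 bp upstream of the gene start held it at 20 of 269 nhr genes (7.43%) and at 6.48% of other genes. By rank, it was present in 4 of the 12 nhr regions ranked among the 1000 highest (33.3%, 13.8 to 60.9) and in 14.2% of 706 such regions at other genes. Below the 1000 highest and down to rank 2500 it was present in none of 36 nhr regions, for which a count of 0 gives an upper limit of 9.64%, and in 8.11% of regions at other genes. Beyond rank 2500 it was in 5 of 47 (10.6%) and in 7.74%. The 4 highly ranked regions with the word are those of nhr-46, nhr-35 and nhr-232 and the upstream region of nhr-3.

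The word is shown here with 12 bases on either side, oriented so that it reads TGACAG, in order to compare its surroundings across genes. For all 7 sites shown this is the minus strand of WBcel235. They are given in order of pooled rank. The sites at nhr-35 and nhr-85 are not shown.
nhr-46 intron: accggaaatatgTGACAGttcagtttcgcg
nhr-3 upstream: agacaattcagaTGACAGgccatcaaaatc
nhr-232 start: ttgtgatcggtgTGACAGagcaaagaaatc
nhr-55 exon, first site: gtgtagatgattTGACAGggtctcttggaa
nhr-55 exon, second site: tttcagaacattTGACAGtttatcgataag
nhr-48 intron: tatctatcttttTGACAGagagaacgttga
nhr-31 end: tcaaccaatcatTGACAGctaaaatctaca

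The bases directly before the word were tg (nhr-46 and nhr-232), tt (both nhr-55 sites and nhr-48), ga (upstream nhr-3) and at (nhr-31). The distance of the word from the summit was 85 bp at nhr-232, 68 and 38 bp at the sites of nhr-55, 72 bp at nhr-48 and 38 bp at nhr-31. The sites of lower rank were within the range of distances of the higher ones.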

How the data were processed

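The data are UNC-62 ChIP-seq region lists from 2 samples of a single group. Per the labels, the lists exist for builds ce11 and ce10, and the ce11 lists were used. Per the file headers of the read-me texts, the alignments of a replicate and a control gave that replicate's list, both sets of alignments gave the pooled list, and the irreproducible discovery rate applied to these 3 gave the thresholded list. Aligner, peak caller and cut-off: not given in the sources used here. For the signal, the authors' own value per region was deposited on an unstated scale, and was used only to rank regions within a list. The deposited −log10 q-value was turned into a q-value. The deposited summit offset, a distance in bases, was added to the region start, and lay at or near the middle of nearly every region.

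Genes came from Ensembl release 115 on WBcel235, and no ce11 region lay past a chromosome end of that assembly. A summit was assigned to every gene whose window held it, and overlap meant at least 1 shared base. Where a pooled region overlapped several regions of a replicate, the best-ranked was taken. Assignment to windows and to the nearest start was tested on simulated summits, and the word search was not tested in this way. Python 3.11.15, pandas 2.3.3, numpy 2.4.6 and matplotlib 3.10.9 were used.

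The members, gene lists and word were chosen with earlier results of these data known. Genes were named if they had a thresholded region, were among the 15 best in the pooled list, reached a q-value of at most 0.05 in both replicates, lay next to rank 1000 or to the last rank of the thresholded list, or were receptors listed by role. Other genes were named after their values were seen: nhr-27, nhr-55, nhr-263 and the ends of the arrays. Alternatives were narrower windows, assignment to the nearest start, a q-value limit, other word distances and leaving out each replicate. The sequence of the nhr-35 region is not reported here.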

Additional observations from a re-analysis of the deposited data

How the results depend on the processing

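Assignment to the nearest start alone left all 4 gene values within their error or within 1.5 times. The pooled share of nhr genes (23.05%) was 15.6% with the promoter window alone, 8.18% with a window of 500 bp upstream of the start, and 1.49% with a q-value of 0.05 or less. For other genes it was 11.0% with the promoter window and 5.58% with the narrow one. The share with regions in both replicates (33.5%) was 18.6%, 6.32% and 1.49% under the same settings, and 50.2% to 55.02% when 1 replicate was left out, since only 1 list then counts. At other genes the share with both was 14.9% with the promoter window and 4.84% with the narrow one. The 10 genes among the 1000 highest regions became 5 with the promoter window and 4 with the narrow one. Among the 1000 highest regions of a single replicate list there were 18 to 19, a count not taken over the other genes. The 3 genes with a thresholded region became 1 with either promoter window, nhr-35. That was 0.372% of nhr genes, against 0.447% of other genes with the promoter window and 0.3045% with the narrow one. Among as many of the highest regions of a single list as the thresholded list holds, there were 0 to 3 genes. The 3 in replicate 1 were nhr-46 (50), nhr-35 (81) and nhr-105 (195), so nhr-105 was included and nhr-3 (291) was not. There were 0 in replicate 2, where nhr-178, nhr-35 and nhr-46 ranked 214, 216 and 253. The share of regions with TGACAG (9.47%) was 4.21% within 50 bp, 50% (2 of 4 regions) at q-values up to 0.05, and 5.35% to 8.43% in single replicate lists. The cause of these changes was not tested beyond what each setting removes.

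Depth is unknown, and 2 replicates of 1 line allow no test between conditions. Regions placed in a gene's window need not act on that gene. No paired analysis was possible because there was a single group and no test.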

Other observations

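Replicate 1 regions with q-values up to 0.05, without a pooled region, were present at 5 nhr genes. They were nhr-69 (rank 409), nhr-210 (790), nhr-173 (1131), nhr-269 (1262) and nhr-206 (1521). The same count was not taken over the other genes. In replicate 2 the best regions ranked 18498 at nhr-69, 7711 at nhr-173 and 11621 at nhr-269, and nhr-210 and nhr-206 had none. The highest replicate 1 rank of a member without a thresholded region was 195, at nhr-105. The best regions of that gene ranked 1042 in replicate 2 (q = 0.126) and 1451 in the pooled list. This pooled region overlapped no replicate 1 region. The gene's other pooled region, of rank 2436, matched a replicate 1 region of rank 9702, so the region of rank 195 matched neither. In replicate 2 but not replicate 1, such q-values were reached at nhr-178, nhr-34 and nhr-19, at nhr-201 and nhr-202, which share a region of rank 428 (q = 0.0246), and at nhr-28 (570, q = 0.0448). Apart from nhr-178, nhr-34, nhr-19 and nhr-69, these genes were chosen after their values were seen.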
